A study of Homo sapiens with 6 samples.

Results

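The NRF2 and antioxidant defence genes are 42 genes given by a fixed list of symbols, out of 26255 gene symbols in the table of this RNA-seq experiment. All 42 had a row in the table. The list holds 7 regulators, 8 genes of glutathione synthesis, recycling and peroxidases, 9 genes of the thioredoxin and peroxiredoxin system, 3 genes for catalase and superoxide dismutases, 9 genes of quinone, carbonyl and conjugation enzymes, and 6 genes of haem, iron and metal binding. 40 of them reached 0.1 FPKM in 3 or more libraries out of 6 and were tested, while GPX2 and AKR1C2 did not.

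NRF2, encoded by NFE2L2, is a transcription factor that KEAP1 holds in the cytoplasm and hands to a ubiquitin ligase. When electrophiles or peroxides modify KEAP1, NRF2 escapes degradation, pairs with small MAF proteins and binds antioxidant response elements (AREs) near genes that make glutathione, reduce thioredoxin and detoxify quinones and carbonyls. BACH1 is a haem-sensitive repressor that occupies such elements, with HMOX1 as its best known target, and metallothioneins are induced by zinc through metal response elements (MREs).

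RNA came from MDA-MB-231 cells, an established human triple-negative breast cancer line. The cells had been infected with lentivirus for a non-targeting hairpin (shNT, n = 3 libraries) or a hairpin against GPR81 (shGPR81, n = 3 libraries), the lactate receptor encoded by HCAR1, and selected with puromycin. The sources used here do not say which GPR81 hairpin the sequenced cells carried, nor that the libraries came from separate cultures, so p-values measure only the spread between these libraries, which may be technical. The values are FPKM, fragments scaled by transcript length and library size, so levels of different genes can be compared per length.

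HCAR1 itself was at 0.968, 1.02 and 1.36 FPKM in shNT and at 0.978, 0.891 and 0.396 FPKM in shGPR81. The groups overlapped, and the log2 fold change of -0.57 (95% confidence interval -1.30 to 0.15) did not pass the test (limma, adjusted p = 0.38). In reads recovered from steps in the FPKM, HCAR1 had 37, 40 and 52 in shNT and 40, 36 and 16 in shGPR81. Their depth-corrected ratio was 0.677 (exact Clopper-Pearson interval 0.513 to 0.892, counting error only). The study reported reduced GPR81 by RT-qPCR and western blotting. Here shGPR81 is used as the name the labels give the libraries. Of the markers checked, the mesenchymal VIM was at 3211 to 4443 FPKM, AXL at 144 to 181 FPKM and the epithelial KRT18 at 182 to 241 FPKM, and ESR1, PGR, CDH1 and KRT5 were listed at 0 in all 6 libraries. ERBB2 was at 10.6 to 12.6 FPKM, GATA3 at 1.11 to 1.39 FPKM, and PTPRC and PECAM1 at most at 0.136 FPKM. CD44 was lower in every shGPR81 library (149 to 158 FPKM, against 173 to 180.3 FPKM in shNT), as was PECAM1, near 0. TP63 was higher in every one (0.282 to 0.409 FPKM, against 0.108 to 0.116 FPKM). So were VIM (3960 to 4443 FPKM, against 3211 to 3937 FPKM) and GATA3 (1.341 to 1.39 FPKM, against 1.11 to 1.335 FPKM). CD44, TP63, VIM and GATA3 did not pass the test, and PECAM1 was too low to be tested. The part of these differences in the results was not tested. FPKM carry no read totals, and relative depth recovered from low values was 1 to 1.07 across libraries. In bulk RNA, fewer cells of a type and less RNA per cell cannot be told apart.

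AKR1C3 was the one NRF2 pathway member with a large difference between the hairpins, and it was higher in shGPR81. TXNRD1, TXN and GPX8 rose by smaller amounts, 1.17- to 1.26-fold. Each of these smaller calls held in only 1 of the 6 fits that left out 1 library. With all 6 libraries no member passed the test as lower, although 16 of the 40 tested members had negative log2 fold changes. The lowest was GPX3 at -0.53, which did not pass (limma, adjusted p = 0.255). The regulators NFE2L2, KEAP1 and BACH1 and the much used reporter genes HMOX1, NQO1 and GCLM did not pass the test.

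The groups were tested by limma on log2(FPKM + 0.1), and p-values were adjusted (Benjamini-Hochberg) over all 14349 genes tested. With both a fold change over 1.5 and an adjusted p below 0.05 required, 1 of 40 tested members was higher in shGPR81 and 0 were lower, where 0.955% of all tested genes were higher and 1.59% were lower. At an adjusted p under 0.05 alone, 4 members were higher and 0 were lower, beside 2.06% and 3.07% of all tested genes. 11 members had an unadjusted limma p under 0.05, beside 19.5% of all tested genes. The 3 shGPR81 values lay above the 3 shNT values in 12 members (MAFG, SQSTM1, GCLC, GPX8, TXN, TXNRD1, SOD1, NQO1, AKR1C3, MT2A, MT1X and MT1E), and below them in 0 members. Over all tested genes 12.9% were higher and 12.7% were lower without overlap. For a gene whose groups did not overlap, the two-sided exact permutation p was 0.1, the smallest that 3 against 3 libraries allow.

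The median log2 fold change over the 40 tested members was 0.03, and that over all tested genes was 0.01. 24 members were above 0 and 16 were below, and 18 lay within 0.1 of 0. By group, the median was 0.02 for the regulators, -0.02 for the glutathione genes, 0.01 for thioredoxin and peroxiredoxins, 0.06 for catalase and superoxide dismutases, 0.02 for the quinone, carbonyl and conjugation enzymes and 0.13 for haem, iron and metal binding.

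**Figure D1:**
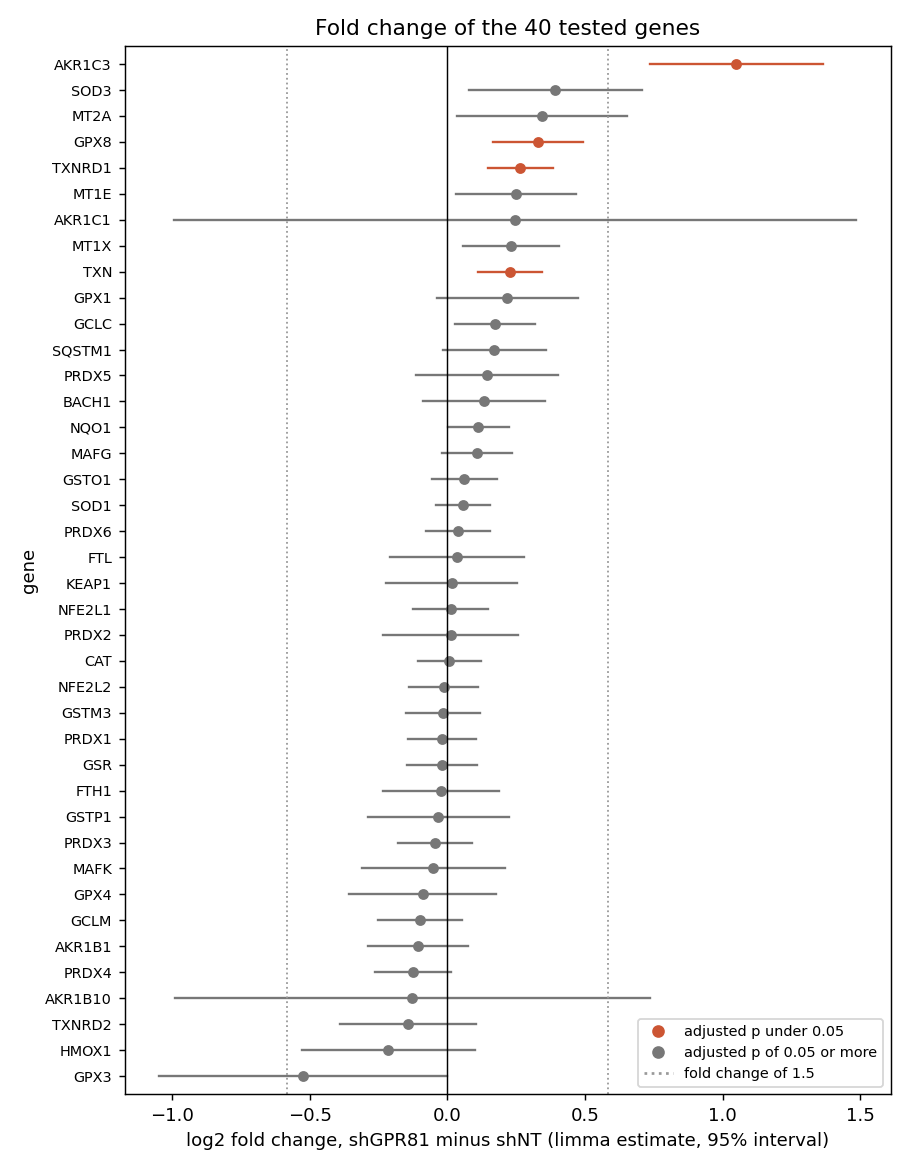
Log2 fold change of each of the 40 tested members, shGPR81 over shNT, on the log2(FPKM + 0.1) scale, with limma's 95% confidence interval, ordered by size. Colour marks an adjusted p under 0.05, and dotted lines mark a fold change of 1.5. AKR1C3 stands at 1.05, TXN, TXNRD1 and GPX8 lie between 0.23 and 0.33 with intervals above 0, and AKR1C1 and AKR1B10 have the widest intervals.

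FTL (ferritin light chain), MT2A (a metallothionein) and FTH1 (ferritin heavy chain) had the highest mean FPKM of the members, with FTL at 3523 to 4527 FPKM over the 6 libraries. The peroxiredoxin PRDX1, which reduces peroxides at the expense of thioredoxin, was at 784, 781 and 834 FPKM in shNT and at 772, 784 and 811 FPKM in shGPR81. At the other end, the epithelial glutathione peroxidase GPX2 was at 0.0668, 0 and 0.134 FPKM in shNT and at 0, 0.0779 and 0.189 FPKM in shGPR81. AKR1C2, a reductase of steroids and carbonyls, was listed at 0 in all libraries but shGPR81 replicate 1, where it was at 0.0761 FPKM.

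**Figure D2:**
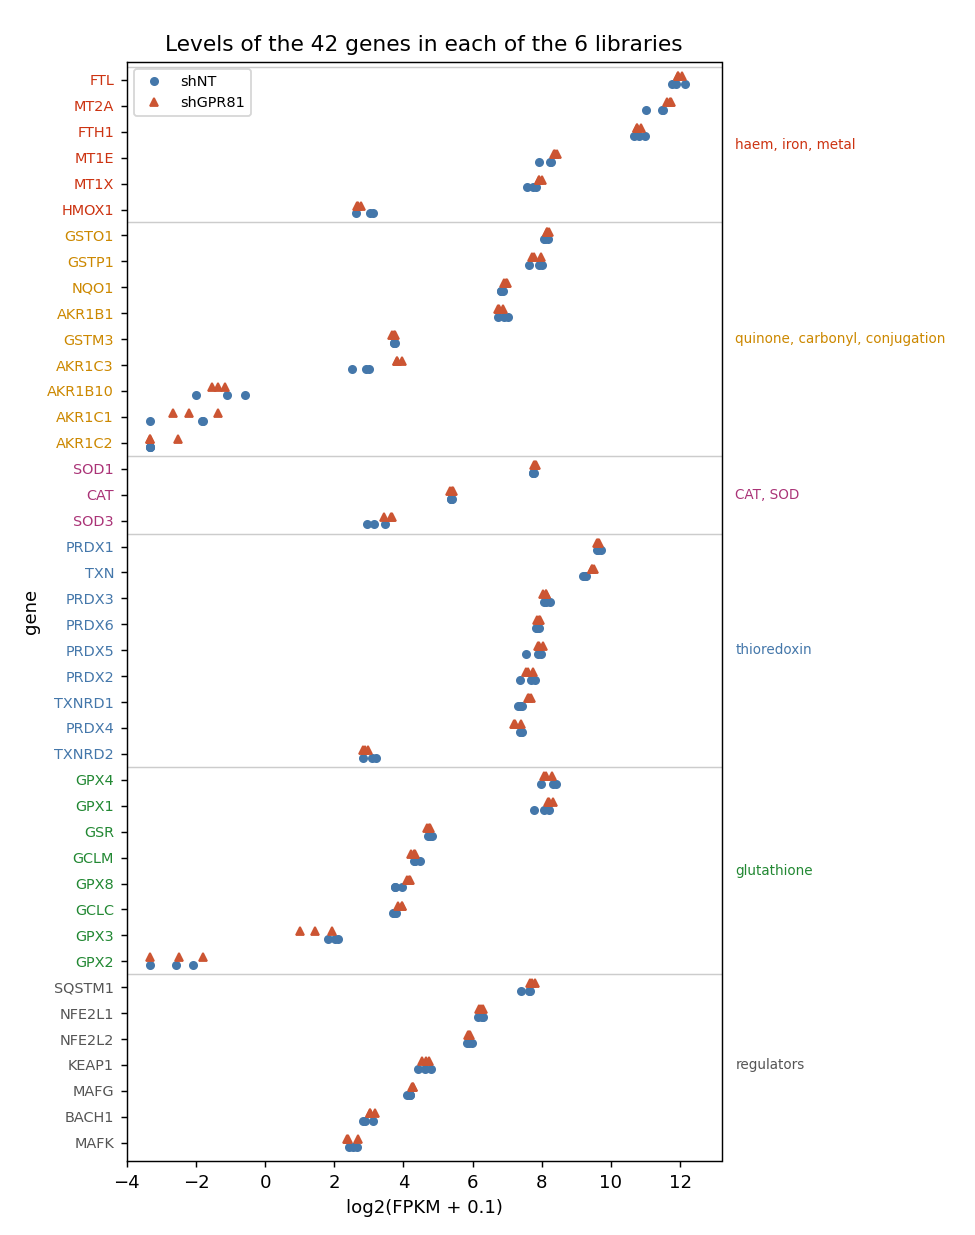
Level of each of the 42 members as log2(FPKM + 0.1), by role group, for the 3 shNT and 3 shGPR81 libraries. FTL, MT2A and FTH1 lie at 1624 FPKM or more in every library, and GPX2 and AKR1C2 lie below 0.2 FPKM.

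Among the regulators, NFE2L2 was at 63.2, 56.9 and 59.9 FPKM in shNT and at 58.3, 60.5 and 59.3 FPKM in shGPR81. All shGPR81 values of NFE2L2 lay inside the shNT range. The log2 fold change was -0.01 with a 95% confidence interval of -0.14 to 0.11 (limma, adjusted p = 0.925). KEAP1, the inhibitor and sensor, was at 21.5, 24.7 and 27.8 FPKM in shNT and at 25.0, 23.0 and 26.6 FPKM in shGPR81, again with overlap. Its log2 fold change was 0.02 with an interval of -0.22 to 0.25 (limma, adjusted p = 0.958). BACH1 was at 8.59, 7.37 and 7.002 FPKM against 8.11, 8.92 and 8.11 FPKM, a log2 fold change of 0.13 with an interval of -0.09 to 0.36 (limma, adjusted p = 0.524).

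SQSTM1 (p62), an autophagy receptor that binds KEAP1 and is itself an NRF2 target, was at 167.5, 199.9 and 201.5 FPKM in shNT and at 212, 203.5 and 222.5 FPKM in shGPR81. All 3 shGPR81 values were above the shNT values, but shNT replicate 1 stood well below the other shNT libraries, and the log2 fold change of 0.17 (SE 0.08) had an adjusted p of 0.305 in limma. Without shNT replicate 1 it was 0.08 (limma, adjusted p = 0.347). The small MAF proteins are the DNA-binding partners of NRF2. MAFG was at 17.0 to 18.3 FPKM in shNT and at 19.1 to 19.3 FPKM in shGPR81, with a log2 fold change of 0.11 (limma, adjusted p = 0.349). MAFK was at 5.24, 6.17 and 5.71 FPKM against 5.19, 5.06 and 6.30 FPKM, with overlap and a log2 fold change of -0.05 (limma, adjusted p = 0.860). NFE2L1, a relative of NRF2 at the endoplasmic reticulum that governs proteasome genes, was at 70.9 to 78.2 FPKM in shNT and at 72.9 to 79.5 FPKM in shGPR81.

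AKR1C3, an aldo-keto reductase of prostaglandins, steroids and carbonyls, was at 7.51, 8.01 and 5.56 FPKM in shNT and at 14.1, 14.0 and 15.4 FPKM in shGPR81. Every shGPR81 library lay far above every shNT library. The means were 7.02 ± 1.29 and 14.5 ± 0.767 FPKM (SD, n = 3 each), and the log2 fold change was 1.05 with an SE of 0.13 and a 95% confidence interval of 0.74 to 1.36 (limma, adjusted p = 0.00568). AKR1C3 passed both thresholds under each of the 15 alternative settings, with log2 fold changes of 0.89 to 1.15 and limma adjusted p-values of 0.00154 to 0.0366. The gene lies on chromosome 10 at chr10:5077546-5149878 (GRCh37, plus strand), in a cluster with its paralogs AKR1C1 and AKR1C2. In its longest annotated transcript, 137 of 1331 stretches of 75 bases, the read length, also occurred in another gene, 119 of them in AKR1C2. The neighbours were close to silent. AKR1C1 had 3, 3 and 0 recovered reads in shNT and 5, 1 and 2 in shGPR81, and AKR1C2 was above 0 only in shGPR81 replicate 1. A value in 1 library leaves no steps from which a read number could be recovered.

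RefSeq places 2 start sites for AKR1C3 on GRCh38.p14, both on the plus strand. They are printed here because AKR1C3 is the member that differed most, each with the bases before the start in lower case and the 50 bases from the start on in capitals. The upstream one is at chr10:5048531-5048830 and the downstream one at chr10:5094164-5094463.
AKR1C3 start 1: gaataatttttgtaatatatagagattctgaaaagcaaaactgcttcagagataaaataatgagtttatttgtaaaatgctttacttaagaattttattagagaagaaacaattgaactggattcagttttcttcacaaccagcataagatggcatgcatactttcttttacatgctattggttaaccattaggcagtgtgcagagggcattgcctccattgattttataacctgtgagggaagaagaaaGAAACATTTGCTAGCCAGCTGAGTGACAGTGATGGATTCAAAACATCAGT
AKR1C3 start 2: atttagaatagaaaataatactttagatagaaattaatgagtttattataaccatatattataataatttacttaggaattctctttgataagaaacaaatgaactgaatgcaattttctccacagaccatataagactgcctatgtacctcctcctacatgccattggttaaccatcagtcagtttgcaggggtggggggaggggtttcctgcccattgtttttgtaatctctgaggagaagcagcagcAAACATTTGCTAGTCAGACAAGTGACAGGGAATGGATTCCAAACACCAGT
Aligned to each other, they share 216 identical bases over 325 aligned columns, 66.5%. Neither window holds the ARE letters TGACNNNGC on either strand, and bases outside the windows were not searched. Gene-level FPKM do not say which start was used.

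**Figure D3:**
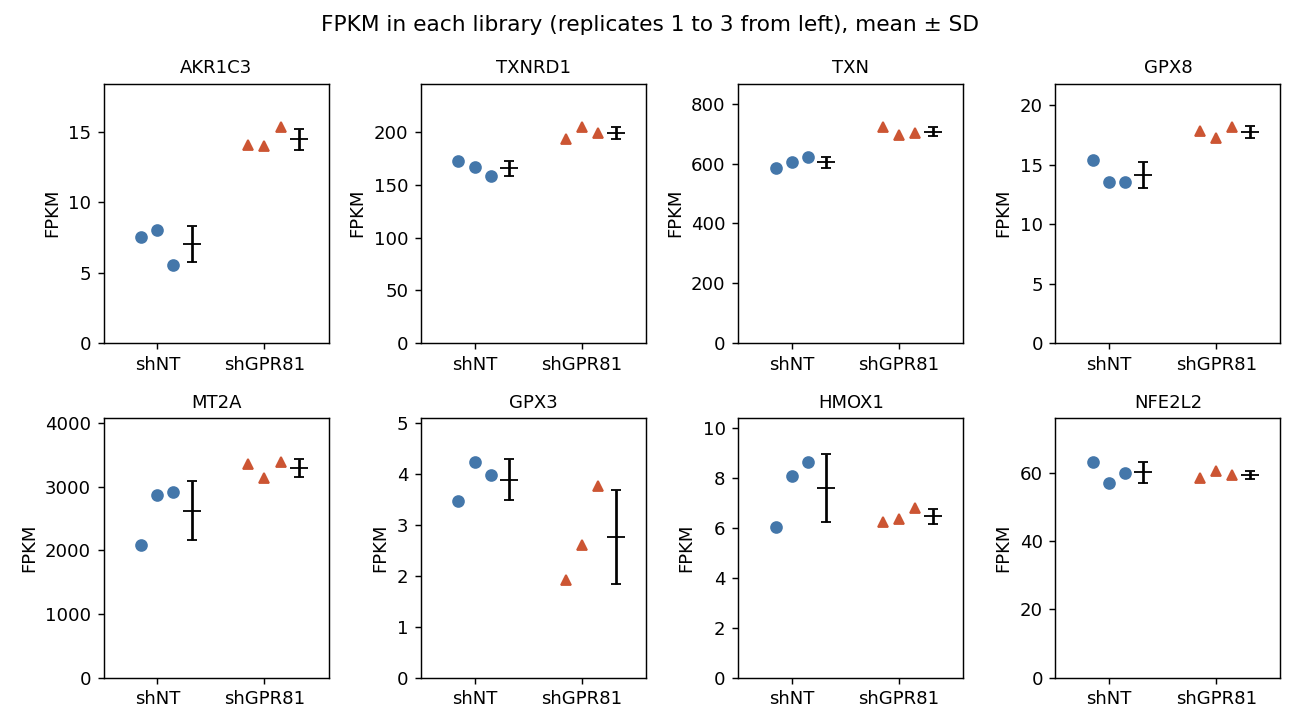
FPKM in each library for 8 members (AKR1C3, TXNRD1, TXN, GPX8, MT2A, GPX3, HMOX1 and NFE2L2), with each group's mean and SD (n = 3). AKR1C3 separates the groups widely, TXNRD1, TXN and GPX8 separate them narrowly, and the values of NFE2L2 overlap.

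The thioredoxin system reduces disulfides and recharges the peroxiredoxins with electrons from NADPH. TXNRD1, the cytosolic thioredoxin reductase, was at 172, 167 and 158.5 FPKM in shNT and at 193.5, 205 and 199 FPKM in shGPR81. The groups did not overlap, with means of 166 ± 7.01 and 199 ± 5.84 FPKM (SD, n = 3 each). The log2 fold change was 0.27 (SE 0.05, 95% confidence interval 0.15 to 0.38, limma adjusted p = 0.0280). Its substrate TXN, thioredoxin itself, was at 585, 607 and 621 FPKM in shNT and at 724, 696 and 703 FPKM in shGPR81. These groups did not overlap either, and the log2 fold change was 0.23 (SE 0.05, interval 0.11 to 0.34, limma adjusted p = 0.0465).

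The calls of TXNRD1 and TXN depended on the libraries in the fit. Leaving out shNT replicate 1 kept both below 0.05 (limma adjusted p = 0.0135 and 0.0467). Leaving out any of shNT replicates 2 and 3 and shGPR81 replicates 1, 2 and 3 gave limma adjusted p-values of 0.0661 to 0.137 for TXNRD1 and of 0.0580 to 0.207 for TXN. TXN lies on chromosome 9, where the median log2 fold change was 0.10 over 358 genes. With each chromosome centred on its own median, the log2 fold change of TXN was 0.14 (limma, adjusted p = 0.154), and that of TXNRD1, on chromosome 12, was 0.24 (limma, adjusted p = 0.0387).

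The mitochondrial reductase TXNRD2 was at 7.06, 8.52 and 9.06 FPKM in shNT and at 7.38, 7.01 and 7.79 FPKM in shGPR81, with overlap and a log2 fold change of -0.14 (limma, adjusted p = 0.535). The 6 peroxiredoxins had log2 fold changes of -0.12 (PRDX4, in the endoplasmic reticulum) to 0.14 (PRDX5), and all overlapped between groups. PRDX1 was at -0.02 (limma, adjusted p = 0.889).

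Of the glutathione genes, GPX8 passed the test. GPX8, a membrane peroxidase of the endoplasmic reticulum that lacks selenocysteine, was at 15.4, 13.5 and 13.5 FPKM in shNT and at 17.9, 17.2 and 18.2 FPKM in shGPR81. The lowest shGPR81 value was above the highest shNT value. The means were 14.1 ± 1.06 and 17.8 ± 0.486 FPKM (SD, n = 3 each), a log2 fold change of 0.33 (SE 0.07, 95% confidence interval 0.17 to 0.49, limma adjusted p = 0.0408). Without shNT replicate 1 the limma adjusted p of GPX8 was 0.00858, and leaving out any other library (shNT replicates 2 and 3, shGPR81 replicates 1, 2 and 3) gave 0.104 to 0.159.

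Glutathione is made in a step limited by glutamate-cysteine ligase, a catalytic subunit (GCLC) with a modifier (GCLM). GCLC was at 13.01 to 13.77 FPKM in shNT and at 14.3 to 15.5 FPKM in shGPR81, without overlap, and had a log2 fold change of 0.17 (limma, adjusted p = 0.181). GCLM was at 22.3, 20.3 and 19.9 FPKM against 20, 18.7 and 19.6 FPKM, with overlap. Its log2 fold change was -0.10 with a 95% confidence interval of -0.25 to 0.05 (limma, adjusted p = 0.482). GSR, which returns oxidised glutathione to its reduced form, was at -0.02 (limma, adjusted p = 0.880).

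GPX3, a secreted glutathione peroxidase, had the largest negative log2 fold change of the members, -0.53 (SE 0.22, 95% confidence interval -1.047 to -0.003), but did not pass the test (limma, adjusted p = 0.255). It was at 3.45, 4.24 and 3.96 FPKM in shNT and at 1.92, 2.60 and 3.75 FPKM in shGPR81. Replicate 3 of shGPR81 lay within the shNT range. The log2 fold change of GPX3 was -0.30 without shGPR81 replicate 1 and -0.77 without shGPR81 replicate 3 (limma, adjusted p = 0.551 and 0.0786). These values stand for 74, 93 and 85 recovered reads in shNT and for 44, 59 and 85 in shGPR81. The depth-corrected ratio of their sums was 0.709 (exact Clopper-Pearson interval 0.583 to 0.859, which covers counting error only).

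GPX1, the abundant cytosolic peroxidase, was at 219, 269 and 298 FPKM in shNT and at 298, 288 and 322 FPKM in shGPR81 and had a log2 fold change of 0.22 (limma, adjusted p = 0.340), or of 0.09 without shNT replicate 1 (limma, adjusted p = 0.427). 49.6% of the 75-base stretches of its longest transcript also occurred in another gene, so its level is uncertain. GPX4, which reduces lipid peroxides and protects from ferroptosis, was at 255, 324 and 339 FPKM against 278, 265 and 314 FPKM, with overlap and a log2 fold change of -0.09 (limma, adjusted p = 0.742).

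SOD3, the extracellular superoxide dismutase, was at 7.68, 8.83 and 10.9 FPKM in shNT and at 10.7, 12.5 and 12.7 FPKM in shGPR81. The top shNT value was just above the bottom shGPR81 value. In recovered reads SOD3 had 140, 165 and 199 against 208, 241 and 244, a depth-corrected ratio of 1.31 (exact Clopper-Pearson interval 1.16 to 1.47, counting error only). Its log2 fold change of 0.39 had a 95% confidence interval of 0.08 to 0.71 and did not pass (limma, adjusted p = 0.162). The log2 fold change of SOD3 was 0.28 without shNT replicate 1 and 0.53 without shNT replicate 3 (limma, adjusted p = 0.202 and 0.0528). SOD1, the cytosolic enzyme, was tight in both groups, at 215, 217.5 and 216 FPKM in shNT and at 220.5, 223 and 230.0 FPKM in shGPR81. SOD1 did not overlap, yet its log2 fold change was 0.06 (limma, adjusted p = 0.551). Catalase (CAT) was at 0.01.

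NQO1, the quinone reductase most often used as an NRF2 readout, was at 113.5, 113 and 118 FPKM in shNT and at 124, 119.8 and 129 FPKM in shGPR81. The groups did not overlap and lay close together. The log2 fold change was 0.11 (SE 0.05, limma adjusted p = 0.254). GSTO1, a glutathione transferase with thioltransferase activity, was at 268, 276 and 291 FPKM against 287, 287 and 298 FPKM, with overlap and a log2 fold change of 0.06 (limma, adjusted p = 0.587). GSTP1, a conjugating transferase, was at -0.03, GSTM3 at -0.02 and the aldose reductase AKR1B1 at -0.11 on the log2 fold change scale. AKR1B10, a well known NRF2 target in other cells, was represented by 7, 3 and 11 reads in shNT and 6, 7 and 5 in shGPR81, so that its ratio of 0.814 had an exact Clopper-Pearson interval of 0.409 to 1.605 for counting error alone. A change of AKR1B10 within that range was not detectable at this depth.

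Haem oxygenase HMOX1 breaks haem down to biliverdin, iron and carbon monoxide. It was at 6.03, 8.09 and 8.64 FPKM in shNT and at 6.22, 6.35 and 6.79 FPKM in shGPR81, or 115, 158 and 165 against 127, 128 and 137 recovered reads. The lowest value of all was shNT replicate 1, and the other shNT libraries lay above all of shGPR81. The log2 fold change was -0.21 (limma, adjusted p = 0.459). Without shNT replicate 1, HMOX1 was at -0.37 with a limma adjusted p of 0.0391, and without any other library the limma adjusted p was 0.519 to 0.722.

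Ferritin stores the iron that haem breakdown frees. FTH1 was at 1624, 1792 and 2022 FPKM in shNT and at 1739, 1724 and 1873 FPKM in shGPR81. FTL was at 3523, 3798 and 4527 FPKM against 3909, 3940 and 4228 FPKM, and both overlapped between groups. The log2 fold changes were -0.02 for FTH1 and 0.03 for FTL (limma, adjusted p = 0.901 for FTL). 31.5% of the 75-base stretches of FTH1 and 9.54% of those of FTL recurred in other genes, so these levels could include or lose reads of copies.

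Metallothioneins bind zinc and copper and scavenge oxidants through their cysteines. MT2A was at 2087, 2865 and 2918 FPKM in shNT and at 3352, 3133 and 3391 FPKM in shGPR81. MT1X was at 189, 228.5 and 216 FPKM against 243, 242 and 257 FPKM, and MT1E was at 244, 310.3 and 304 FPKM against 335, 328 and 351 FPKM. All 3 genes were higher in every shGPR81 library than in any shNT library, and shNT replicate 1 was the lowest library for each. None passed the test, with log2 fold changes of 0.34 (SE 0.13) for MT2A, 0.23 for MT1X and 0.25 for MT1E and limma adjusted p-values of 0.209, 0.139 and 0.199. Without shNT replicate 1 the log2 fold changes were 0.19 for MT2A, 0.16 for MT1X and 0.14 for MT1E, with limma adjusted p-values of 0.164, 0.114 and 0.130.

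In the promoter windows of RefSeq (GRCh38.p14, 300 bases each, of which the last 50 follow the start site), 33 of the 42 members were matched with 48 windows. The members AKR1B10, MT1E, GSR, FTH1, MAFK, PRDX6, PRDX1, HMOX1 and SOD1 had no entry. The ARE core TGACNNNGC, on either strand, occurred in 9 of 48 member windows (18.75%), belonging to GCLM, GPX2, GSTO1, GSTP1, KEAP1, MT1X, MT2A and TXNRD1. It occurred in 13.4% of all 35116 windows. With a further A at its end, a longer spelling that contains the core, it occurred in 6 member windows (12.5%) and in 3.18% of all windows. A match of letters is a description and not a shown binding site. The 6 matches to the longer spelling are shown because this element defines the pathway, each in 40 bases written 5′ to 3′ along the gene's strand, with the ARE letters in capitals and read on whichever strand carries them.
GCLM, chr1:93909441-93909480, minus strand: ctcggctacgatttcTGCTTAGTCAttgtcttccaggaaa
GSTO1, chr10:104254651-104254690, plus strand: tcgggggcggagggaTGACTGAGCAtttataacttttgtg
GSTP1, chr11:67583731-67583770, plus strand: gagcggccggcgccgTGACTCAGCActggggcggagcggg
TXNRD1, chr12:104286914-104286953, plus strand: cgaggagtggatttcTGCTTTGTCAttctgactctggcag
GPX2, chr14:64942844-64942883, minus strand: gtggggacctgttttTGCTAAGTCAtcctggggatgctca
KEAP1, chr19:10502779-10502818, minus strand: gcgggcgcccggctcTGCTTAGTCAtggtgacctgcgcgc
Of the genes with the longer spelling, TXNRD1 passed the test as higher in the fit of all 6 libraries. GCLM, GSTO1, GSTP1 and KEAP1 did not pass the test and GPX2 was not tested. AKR1C3, TXN and GPX8 passed as higher in that fit and had no core match in their windows, and NQO1 and GCLC had none either. The calls of TXNRD1, TXN and GPX8 each held in only 1 of the 6 fits that left out 1 library. Bases outside the windows were not searched, so a window without a match does not mean a gene without an element. The part of these elements in the values was not tested. The core overlaps the letters TGACTCA, bound by AP-1 factors, in GSTP1 and MT2A.

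MRE letters (TGCACNC or TGCGCNC, either strand) occurred in 24 of 48 member windows (50%) and in 29.6% of all windows. MT2A held 8 of them, a number that 0.0199% of all windows reached, and MT1X held 4, reached by 0.601%. The MT2A window is shown, with these letters in capitals, because no other member held as many (chr16:56608334-56608633, plus strand, GRCh38.p14).
MT2A promoter: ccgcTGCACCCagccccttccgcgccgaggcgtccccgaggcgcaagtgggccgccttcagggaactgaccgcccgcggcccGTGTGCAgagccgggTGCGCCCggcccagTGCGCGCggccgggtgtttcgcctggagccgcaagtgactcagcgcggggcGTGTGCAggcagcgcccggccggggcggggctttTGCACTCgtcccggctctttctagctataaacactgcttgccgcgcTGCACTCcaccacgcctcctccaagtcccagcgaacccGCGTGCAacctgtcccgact

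Relative to the shNT means, the median over the members was -0.06, 0.01 and 0.06 on the log2 scale in shNT replicates 1, 2 and 3, and 0.02, 0.01 and 0.10 in shGPR81 replicates 1, 2 and 3. The lowest library was thus shNT replicate 1 and the highest was shGPR81 replicate 3. Without shGPR81 replicate 3, 20 members were above 0 and 20 were below. The library shNT replicate 1 was the lowest of the 3 shNT libraries in 26 of 40 tested members (65%), against 40.4% of all tested genes, while shNT replicates 2 and 3 were lowest in 7 members each. Its median difference from the mean of the other shNT libraries was -0.09 on the log2 scale over the members and -0.004 over all tested genes. Across the 40 members this difference went with the GC content of the transcript (Pearson r = -0.762, Spearman rho = -0.838), as a description across genes that share one library. Over 13819 tested genes r was -0.295 and rho was -0.560. The part of GC content in the values of the members was not tested beyond the refit given next.

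With each library's relation to GC content removed, a setting chosen after the data were seen, 7 members passed an adjusted p of 0.05, and all 7 were higher in shGPR81. AKR1C3, TXNRD1 and GPX8 were among them, with log2 fold changes of 1.05, 0.26 and 0.32. GPX1 (0.19), MT1X (0.23), SOD3 (0.35) and SQSTM1 (0.16) passed in this setting, with limma adjusted p-values of 0.0279, 0.0254, 0.0465 and 0.0443. In the same setting 5.20% of all tested genes were higher and 5.70% were lower, so it made more calls throughout the table. TXN was no longer past the threshold, at 0.21 (limma, adjusted p = 0.132).

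**Figure D4:**
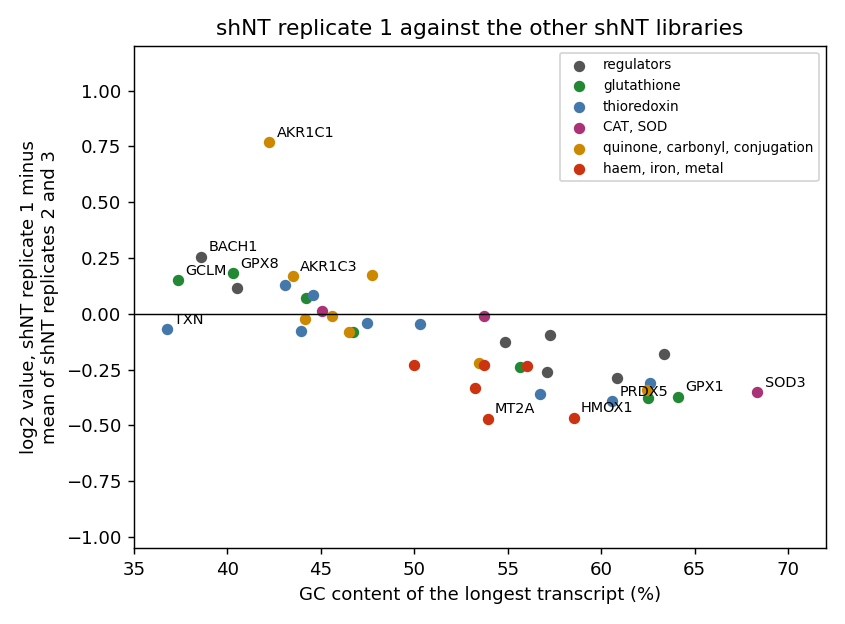
Difference of shNT replicate 1 from the mean of shNT replicates 2 and 3, in log2(FPKM + 0.1), against the GC content of each member's longest transcript in percent, for the 40 tested members. Members of high GC content lie below 0 and most members of low GC content lie above, with r = -0.762.

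Outside the 42 members, 87 other genes of the same systems were compared, 77 of which were tested. At an adjusted p under 0.05, 5 of them were higher and 3 lower, beside 2.06% and 3.07% of all tested genes. With the fold change of 1.5 also required there were 0 higher and 1 lower, beside 0.955% and 1.59% of all tested genes. Their median log2 fold change was 0.06. The lower gene was SRXN1 (sulfiredoxin), an NRF2 target that revives overoxidised peroxiredoxins. SRXN1 was at 38.8, 41.3 and 40.04 FPKM in shNT and at 27.2, 26.9 and 25.0 FPKM in shGPR81, and all shGPR81 values were far below. Its log2 fold change was -0.60 (SE 0.06, limma adjusted p = 0.00176).

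SRXN1 lies on chromosome 20, where the median over 267 genes was -0.40 on the log2 fold change scale. With chromosomes centred, SRXN1 was at -0.20 (limma, adjusted p = 0.0872). Leaving out shNT replicate 2 or shGPR81 replicate 3 brought it to -0.58 and -0.56, under the fold threshold, with limma adjusted p-values of 0.0165 and 0.0111. GSS, glutathione synthetase, is on the same chromosome and had a log2 fold change of -0.34 (limma, adjusted p = 0.107) and of 0.07 with chromosomes centred. None of the 42 members lies on chromosome 20.

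The other genes that passed at the adjusted p alone are named here after their values were seen. The higher ones were IDH1 (0.31), which makes NADPH in the cytosol, PTGR1 (0.42), a reductase of alkenals and prostaglandins on chromosome 9, MSRB2 (0.42), a mitochondrial methionine sulfoxide reductase, and the glutathione transferases GSTA4 (0.38) and MGST1 (0.22), each value being a log2 fold change. The lower ones besides SRXN1 were the transferase GSTM2 (-0.57) and the zinc exporter SLC30A1 (-0.33). Limma adjusted p-values of these 7 genes were 0.00880 to 0.0375. Leaving out 1 library at a time, PTGR1 stayed below 0.05 in 5 of 6 fits, IDH1 and MSRB2 in 3, SLC30A1 in 2 and GSTA4, MGST1 and GSTM2 in 1, and all 7 did so without shNT replicate 1. The highest limma adjusted p in these fits was 0.0555 for PTGR1 and 0.166 for MGST1, both without shGPR81 replicate 1. With the replicate number as a block, MGST1 (limma adjusted p = 0.0648) and GSTM2 (0.0760) lost the call. All 8 genes of NADPH supply had positive log2 fold changes, with a median of 0.16, and 1 of them, IDH1, passed the test. IDH1 was at 65.8, 63.3 and 63.9 FPKM in shNT and at 80.1, 81.7 and 77.4 FPKM in shGPR81. SLC7A11, the cystine importer that feeds glutathione synthesis, was at 17.8, 14.4 and 11.7 FPKM against 21.2, 20.9 and 17.7 FPKM, with a slight overlap, a log2 fold change of 0.46 and a limma adjusted p of 0.146. Without shNT replicate 1, SLC7A11 passed both thresholds at 0.61 (limma, adjusted p = 0.0259), and leaving out any other library gave 0.31 (without shNT replicate 3) to 0.54 with limma adjusted p-values of 0.184 to 0.379. In limma it also had an adjusted p of 0.0449 when replicates were blocked by number and of 0.0244 after the GC correction, both at log2 fold changes under the fold threshold. The metallothionein MT1F was at 0.44 (limma, adjusted p = 0.114) and passed the adjusted p in 2 of the 15 alternatives. Without shNT replicate 1, MT1F was at 0.28 with a limma adjusted p of 0.0304. That was the 1 fit leaving out a library in which it passed, and the highest limma adjusted p in those fits was 0.306.

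**Figure D5:**
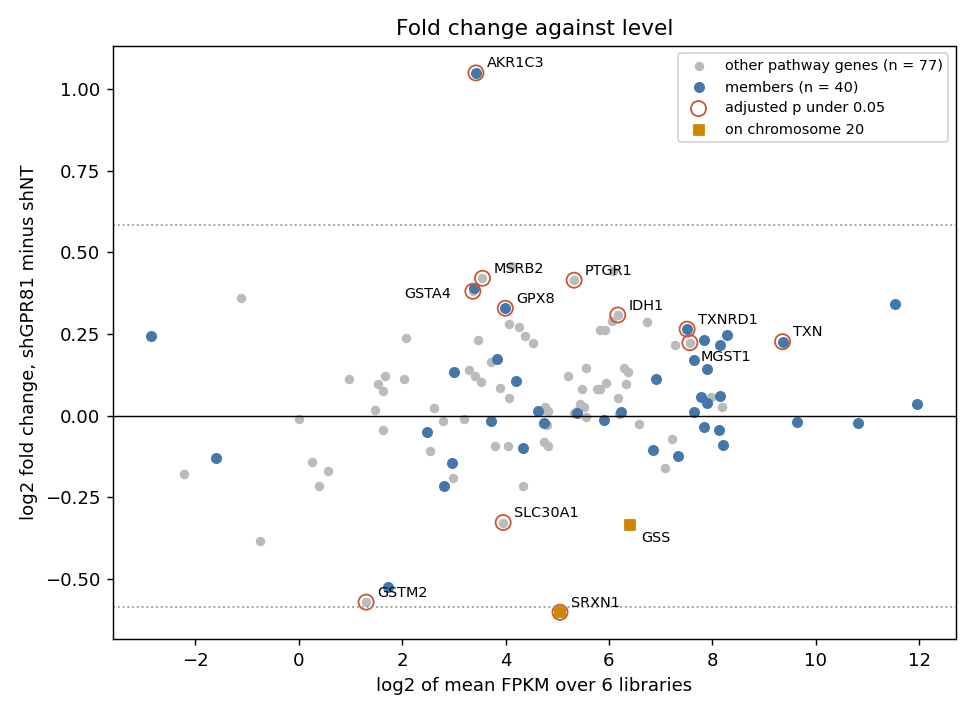
Log2 fold change against the log2 of the mean FPKM over 6 libraries for the 40 tested members and the 77 other tested pathway genes, with rings for genes past an adjusted p of 0.05, squares for genes on chromosome 20 and dotted lines at a fold change of 1.5. AKR1C3 at 1.05 and SRXN1 at -0.60 lie outside the dotted lines, and the other ringed genes lie between them.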

How the data were processed

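RNA-seq libraries of MDA-MB-231 cells (shNT and shGPR81, 3 each) were compared from the table of FPKM that the authors deposited, with 1 value per gene symbol and library. The submitters' processing notes name TopHat2 2.0.13, Bowtie2 2.2.3, SAMtools 0.1.19 and Cuffnorm 2.2.1. They name the mouse build mm10, while the study's methods name human hg19, which was used since the cells are human. The annotation behind the FPKM is not given in the sources used here. The table holds no read totals, so precision rests on the replicate spread, and whole reads were recovered for low genes from steps in their FPKM (tolerance 1e-04, at most 300 reads).

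In R 4.3.3, limma 3.58.1 (lmFit, then eBayes with a trend) was fitted to log2(FPKM + 0.1) of the 14349 genes that reached 0.1 FPKM in 3 or more libraries, with no block and with Benjamini-Hochberg adjustment over all of them. Fold changes on this scale understate those of low genes. Code was tested on simulated data. The 42 members, the list of 87 other pathway genes and the tests were chosen with earlier results of these data known. The text describes members by a rule that named 23 of them (the pathway's regulators and readouts, those past the test, and in each role group the member with the largest absolute log2 fold change and the most and the least expressed one), and the others by value after those were seen. The GC correction and the selenoprotein list were added after the data were seen. Loci are GENCODE 44 on GRCh37, promoter windows RefSeq on GRCh38.p14. Alternatives were leaving out each library in turn, the replicate number as a block, 2 other filters, pseudocounts of 1 and 0.01, median centring, quantile normalization and chromosome centring.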

Additional observations from a re-analysis of the deposited data

How the results depend on the processing

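The count of 1 member (AKR1C3) past both thresholds held under all 15 alternatives, and the median log2 fold change over the members moved by less than the spread between libraries (0.01 to 0.07 when leaving out 1 library). The 4 members past the adjusted p alone depended on the setting. They were 2 with no filter, 1 with quantile normalization, 7 with the GC correction chosen after the data were seen, and 1 to 5 when leaving out 1 library. The correlation of same-numbered libraries' deviations was 0.120, 0.0223 and 0.00577 over 14349 genes for replicates 1, 2 and 3. These values do not settle whether same-numbered libraries were prepared together, which the sources used here do not say. With the replicate number as a block, 1 member passed the adjusted p alone, and TXNRD1, GPX8 and TXN were at limma adjusted p-values of 0.0502, 0.0588 and 0.0665. The other pathway genes past both thresholds (1) were 2 at a pseudocount of 0.01, 0 with chromosome centring and 0 (without shNT replicate 2 or shGPR81 replicate 3) to 3 (without shNT replicate 1) when leaving out 1 library. All tested genes past both thresholds (365) were 217 at a pseudocount of 1 and 198 (without shGPR81 replicate 1) to 408 (without shNT replicate 1) when leaving out 1 library, with 202 without shNT replicate 2 and 201 without shGPR81 replicate 2.

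The log2 fold change of 14 of 40 tested members changed sign under at least 1 alternative. These include 9 outside the rule for named genes (NFE2L1, GSR, PRDX2, CAT, GSTP1, GSTM3, FTH1, AKR1B10 and AKR1C1), the widest being AKR1C1 at -0.26 to 0.93 and AKR1B10 at -0.51 to 0.20. Of the named genes, KEAP1 was at -0.026 with chromosome centring and at -0.0045 with the GC correction, and FTL was at -0.10 with quantile normalization and at -0.0066 with chromosome centring. Leaving out 1 library gave ranges of -0.051 to 0.024 for NFE2L2 (positive without shNT replicate 1), -0.080 to 0.106 for KEAP1 (negative without shNT replicate 1 and at -0.035 without shGPR81 replicate 3), -0.149 to 0.0065 for MAFK (positive without shGPR81 replicate 2 and at 0.0055 without shNT replicate 2), -0.040 to 0.011 for PRDX1 (positive without shNT replicate 3) and -0.044 to 0.137 for FTL (negative without shNT replicate 1 and at -0.00095 without shGPR81 replicate 3). The cause was not tested. AKR1B10 and AKR1C1 rest on few recovered reads, and AKR1C2 and GPX2 were too low to be tested in the main fit.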

Other observations

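Selenoprotein genes share with TXNRD1, TXNRD2, GPX1, GPX2, GPX3 and GPX4 the need for selenocysteine. This list of 25 genes was written after the data were known, so its values are a description. 19 of the 25 genes were tested, 7 with a positive and 12 with a negative log2 fold change, and their median was -0.10. TXNRD1 was the one selenoprotein gene that passed, and it was higher in shGPR81. 5 genes were lower in every shGPR81 library than in any shNT library, beside 12.7% of all tested genes, and none of them passed the test. They were SELM, SEP15 and VIMP, proteins of the endoplasmic reticulum, EPT1, a phospholipid synthesis enzyme, and SEPHS2, which makes the selenium donor. SELM was at 13.4, 16.4 and 17.99 FPKM in shNT and at 13.03, 8.09 and 11.4 FPKM in shGPR81, a log2 fold change of -0.57 (limma, adjusted p = 0.140). SEP15 was at 129, 128 and 123 FPKM against 119, 117 and 116 FPKM, and SEPHS2 was at 27.3, 28.5 and 27.6 FPKM against 25.0, 24.3 and 26.2 FPKM.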
